A study of Mus musculus with 6 samples.

Results

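Foxp3-negative CD4 T cells were taken from single-cell RNA data of 4T1, a mouse mammary carcinoma used to model breast cancer, in 6 libraries, as the barcodes that met a fixed count rule. A barcode is the tag shared by the transcripts of 1 droplet, and each transcript is counted once through its unique molecular identifier (UMI). The rule asked for at least 300 genes, at most 20% mitochondrial UMIs, at least 2 UMIs of the CD3 chain genes Cd3d, Cd3e and Cd3g together, and at least 1 UMI of Cd4. It allowed no UMI of Foxp3, Cd8a or Cd8b1, and fewer than 12 UMIs of the epithelial genes Epcam, Krt7, Krt8 and Krt18 per 10000 UMIs of the barcode. It found 266 barcodes among the 42259 that passed the gene and mitochondrial limits. Libraries 1, 2 and 3 labelled shPgk1 held 42, 21 and 44 of them, against 65, 59 and 35 in shNC libraries 1, 2 and 3.

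CD4 T cells recognise peptides on MHC class II through the T cell receptor and its CD3 chains, with CD4 as coreceptor. Without Foxp3, the factor that defines regulatory T cells, they act mainly as helper cells: they license other cells through surface ligands such as CD40 ligand, and they secrete cytokines that differ between the type 1, type 2, type 17 and follicular helper programmes. In tumours they stand beside regulatory T cells, which restrain immunity, and CD8 T cells, which kill targets with perforin and granzymes.

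The libraries labelled shPgk1 came, per the labels, from 4T1 cells that carried a lentiviral short hairpin RNA (shRNA) against Pgk1, which encodes the glycolytic enzyme phosphoglycerate kinase. The shNC libraries came from 4T1 cells with a non-targeting shRNA. Both kinds of cell had 48 h with lentivirus and 7 days of selection in puromycin (2 µg/mL). Suspensions of more than 80% viable cells then went onto the TaiM4 droplet platform. The labels describe a breast cancer cell line and no host, mouse strain or age, although every library held immune cells. The hairpin was given to the tumour cells, so the T cells described here are not labelled as carrying it.

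The libraries labelled shPgk1 did not have less Pgk1. Over all kept barcodes it stood at 324, 324 and 349 CPM (UMI counts of a gene per 1000000 UMIs of the barcodes summed) in libraries labelled shPgk1, against 350, 340 and 313 CPM in shNC libraries. In epithelial tumour barcodes it stood at 235, 286 and 316 CPM in libraries labelled shPgk1, against 270, 235 and 218 CPM in shNC libraries. In the CD4 T barcodes it stood at 283, 442 and 280 CPM in libraries labelled shPgk1, against 363, 230 and 336 CPM in shNC libraries. The groups overlapped in all of these. The targeted gene therefore does not separate the groups as the labels do, and the groups are called by their labels throughout. Library totals ran from 78778073 to 128933960 UMIs. Between 1234 and 1671 barcode names were shared by each pair of libraries, and at most 2 among the CD4 T barcodes of any pair.

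The label of a CD4 T cell was checked with Cd3e, Cd4, Icos and Cd5. Cd3e, a signalling chain of the receptor complex, had a UMI in 222 of the 266 barcodes (83.5%). Cd3e and Cd4 belong to the rule and show nothing further. Icos, an inducible costimulatory receptor, was not in the rule. It had a UMI in 168 barcodes (63.2%), at 290, 311 and 160 CPM in libraries labelled shPgk1 and 233, 428 and 338 CPM in shNC libraries. Cd5, a surface brake on receptor signalling, had a UMI in 126 barcodes (47.4%), at 163, 226 and 97.8 CPM in libraries labelled shPgk1 and 80.3, 167 and 109 CPM in shNC libraries. The groups overlapped for both genes. In all other kept barcodes of the same 6 libraries Icos lay between 7.95 and 20 CPM and Cd5 between 3.06 and 6.07 CPM, below the CD4 T barcodes of every library. In Foxp3-positive CD4 barcodes both genes were higher than in the CD4 T barcodes in each of the 6 libraries. Icos lay between 509 and 850 CPM there, and Cd5 between 141 and 387 CPM. Both markers from outside the rule thus fit the label of a CD4 T cell, but they do not speak for the absence of Foxp3.

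The rule was met narrowly by part of the barcodes. Exactly 2 CD3 UMIs were present in 51 of the 266, and exactly 1 Cd4 UMI in 151. Barcodes that failed only by having 1 CD3 UMI numbered between 13 and 42 per library. The highest epithelial level among those kept was 11.8 UMIs per 10000. Between 0.891% and 1.85% of epithelial tumour barcodes carried a Cd4 UMI, and whether these came from free RNA or shared droplets was not tested. The absence of Foxp3 depended on depth as well, since 47 of the 213 barcodes that had Foxp3 and otherwise met the rule carried exactly 1 Foxp3 UMI. Ikzf2 or Il2ra, which regulatory T cells express strongly, had a UMI in 48.9% of the CD4 T barcodes, against 97.2% of the Foxp3-positive CD4 barcodes and 73.8% of CD8 barcodes. Median depth was 5937 UMIs in CD4 T barcodes, 6959 in Foxp3-positive CD4 barcodes and 14898.5 in CD8 barcodes.

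Some CD4 T barcodes also carried many transcripts of other cell types. A limit of 60 UMIs of 10 macrophage markers per 10000 UMIs, or 50 of 6 neutrophil markers, set after the values were seen, marked 34 barcodes. Of these, 31 passed the macrophage limit and 3 the neutrophil limit. Barcodes around the macrophage limit stood at 56.7 below it and 65.3 above it, and the highest reached 790 per 10000. The 34 barcodes had a median of 2 CD3 UMIs at a median depth of 20626.5 UMIs, against 7 CD3 UMIs at 5465 UMIs in the other 232. They are called mixed barcodes here. They held 29.8% of the UMIs of all CD4 T barcodes, so results are given with all barcodes and, where it matters, without these 34.

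The marker sums of other cell types show how much RNA of those marker genes the barcodes held. All 10 macrophage markers were detected, with a summed level of 13300 to 14700 CPM in libraries labelled shPgk1 and 2550 to 15800 CPM in shNC libraries. Without the 34 barcodes the macrophage sum was 1270 to 2050 CPM in libraries labelled shPgk1 and 2130 to 3030 CPM in shNC libraries. The 6 neutrophil markers summed to 38.3 to 733 CPM in libraries labelled shPgk1 and 254 to 19400 CPM in shNC libraries, where a single barcode of shNC library 2 held the cystatin genes Stfa3 and Cstdc6 entirely. Dendritic markers summed to 1840 to 2220 CPM in libraries labelled shPgk1 and 637 to 4580 CPM in shNC libraries. Natural killer cell markers summed to 1020 to 1600 CPM in libraries labelled shPgk1 and 608 to 1360 CPM in shNC libraries, and without the 34 barcodes to 142 to 265 CPM in libraries labelled shPgk1 and 172 to 330 CPM in shNC libraries. Fibroblast markers did not drop in this way: they summed to 251 to 1020 CPM in libraries labelled shPgk1 and 407 to 3360 CPM in shNC libraries, and without the 34 barcodes to 273 to 1360 CPM in libraries labelled shPgk1 and 420 to 4730 CPM in shNC libraries, with 44.1% of all their UMIs in 1 barcode of shNC library 1 that is not mixed. Epithelial tumour markers summed to 600 to 647 CPM in libraries labelled shPgk1 and 373 to 646 CPM in shNC libraries, and without the 34 barcodes to 606 to 619 CPM in libraries labelled shPgk1 and 376 to 713 CPM in shNC libraries. B cell markers stayed at or below 45.2 CPM, with Jchain and Iglc2 among those at 0, and gamma-delta T cell markers at or below 9.74 CPM, with Trdv4 at 0. The natural killer list holds 8 genes, Tyrobp and Gzma among them. With all barcodes Gzma stood at 3.26 to 15.1 CPM and Klra8 at 0, and the barcode with the most UMIs of the list was mixed. Which genes made up that sum is not given, so it is not read as natural killer cell RNA. Whether 2 cells shared a droplet in the 34 barcodes was not tested.

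**Figure D1:**
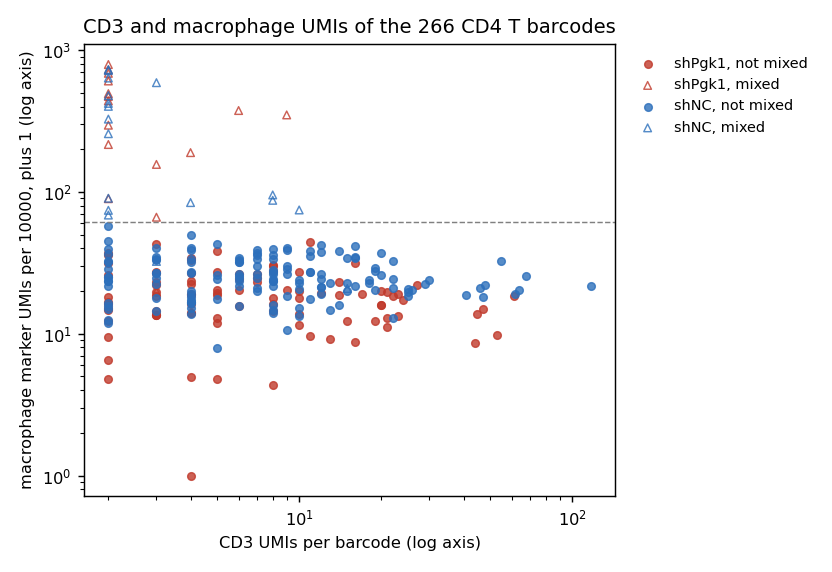
Each point is 1 CD4 T barcode, placed by its CD3 UMIs and by its macrophage marker UMIs per 10000, both on log axes, with libraries labelled shPgk1 in red, shNC libraries in blue, mixed barcodes as open triangles and the limit as a dashed line. Barcodes above the limit of 60 sit mostly at low CD3 counts: 26 of the 34 barcodes over either limit have 2 or 3 CD3 UMIs.

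The share of CD4 T barcodes did not differ beyond the spread between libraries. Of all kept barcodes they made up 0.626%, 0.283% and 0.595% in libraries labelled shPgk1, against 0.845%, 0.951% and 0.512% in shNC libraries. The groups overlapped, with means of 0.501% ± 0.19 in libraries labelled shPgk1 and 0.769% ± 0.229 in shNC libraries (SD, n = 3 each; exact permutation test, two-sided p = 0.3, where 0.1 is the smallest p that 3 against 3 allows). The 95% Wilson interval of a single library was as wide as 0.185% to 0.432% in library 2 labelled shPgk1 and 0.738% to 1.22% in shNC library 2, from counting error alone.

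Set against other T cells, the shares overlapped as well. Of T barcodes, defined by the CD3 and epithelial limits, CD4 T barcodes were 7.71%, 7.09% and 12.2% in libraries labelled shPgk1, against 9.97%, 13.8% and 5.95% in shNC libraries (difference of means -0.928 percentage points, exact permutation p = 0.8, n = 3 each). Of CD4 barcodes with or without Foxp3 they were 53.2%, 61.8% and 57.1% in libraries labelled shPgk1, against 54.2%, 54.1% and 58.3% in shNC libraries (difference 1.81 points, exact permutation p = 0.7, n = 3 each). Both sets of shares overlapped between the groups. The sign of each of these 2 differences turned when single libraries were left out: the first became 1.02 when shNC library 2 was dropped and 0.0175 when library 2 labelled shPgk1 was, and the second became -0.389 in that last case. Thinning every barcode to 2000 UMIs turned the second to -5.34 points. Median depth per CD4 T barcode was 7387.5, 7075 and 3336.5 UMIs in libraries labelled shPgk1 and 7286, 5194 and 7160 UMIs in shNC libraries, with library 3 labelled shPgk1 the shallowest.

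**Figure D2:**
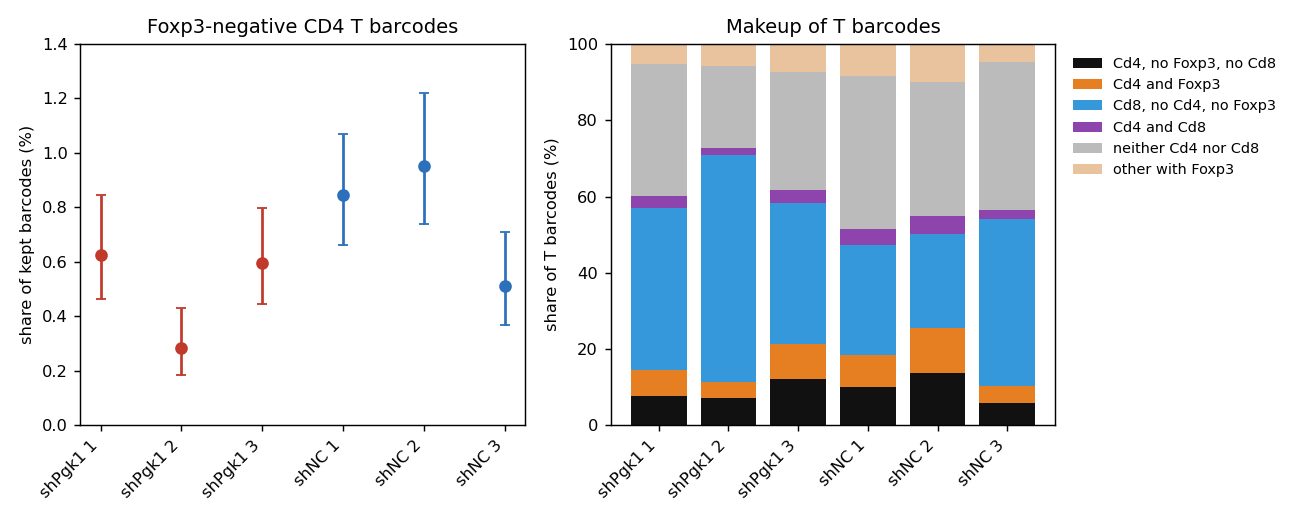
Left, CD4 T barcodes as a percentage of kept barcodes in each library, with 95% Wilson intervals from counting error; right, stacked percentages of T barcodes by the Cd4, Cd8 and Foxp3 UMIs they carry. The left shares run from 0.283% to 0.626% in libraries labelled shPgk1 and from 0.512% to 0.951% in shNC libraries.

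Against all other kept barcodes, as a description with no test since the rule chose the barcodes, the highest ratios came from genes of several kinds. Il13, the type 2 cytokine interleukin 13, averaged 245 CPM in CD4 T barcodes and 0.972 CPM in the rest, a ratio of 252. Tnfsf8, the ligand of CD30, averaged 306 CPM in CD4 T barcodes and 3.56 CPM in the rest, a ratio of 85.8. The ratio was 84.3 for the chemokine gene Ccl1, 49.9 for Tnfsf11, which encodes RANK ligand, 37.8 for the T cell transcription factor gene Lef1 and 29.6 for Satb1, a chromatin organiser of T cells. Other ratios were 100 for Tff1, 68.4 for Ntrk3 and 52.7 for Krt83, with 50.8% of the Tff1 UMIs in 1 barcode. The neutrophil cystatin genes Stfa3 (110), Cstdc6 (86.5), Stfa2 (49.8) and Cstdc5 (49.5) had at least 99.6% of their UMIs in 1 barcode, and Stfa3 and Cstdc6 were at 0 CPM without the mixed barcodes. The averages differ in how many barcodes carry them. Tnfsf8 had a UMI in 78 barcodes with at most 8.4% of its UMIs in 1 of them, whereas Il13 had a UMI in 21 barcodes and 45.2% of its UMIs in 1 barcode of shNC library 3.

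Set against the 213 Foxp3-positive CD4 barcodes of the same libraries, the CD4 T barcodes had higher Tnfsf8, Tnfsf11, Tcf7 and Bcl2 and lower levels of 12 of 16 tested genes of a regulatory T cell list. The test was edgeR's quasi-likelihood test on UMIs summed per library, with library as a term and Benjamini-Hochberg adjusted p below 0.05 as the threshold. It called 681 of 5028 genes (13.5%), of which 418 were higher (8.31%) and 263 lower (5.23%). Without the barcodes rich in macrophage or neutrophil markers it called 420 of 4232 (9.92%), 249 higher (5.88%) and 171 lower (4.04%). The rule used Foxp3, so the regulatory genes that follow Foxp3 describe the split rather than an independent result.

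Tnfsf8 and Tnfsf11, ligand genes of the tumour necrosis factor family, and Lgals7 were among the largest higher differences of the named genes. Tnfsf8 had a lowest, median and highest level of 114, 280 and 622 CPM over the 6 libraries in CD4 T barcodes, against 0, 4.22 and 31.3 CPM in Foxp3-positive CD4 barcodes. The levels did not overlap (log2 difference 5.05 ± 0.62 SE, edgeR adjusted p = 0.0013; 5.35 without the mixed barcodes). Tnfsf11 stood at 52.3, 99.6 and 240 CPM in CD4 T barcodes, against 3.7, 8.91 and 19.3 CPM in Foxp3-positive CD4 barcodes, again without overlap (3.37 ± 0.35, edgeR adjusted p = 8.49e-06). Lgals7, which encodes galectin-7, stood at 184, 264 and 658 CPM in CD4 T barcodes, against 0, 10.4 and 43.3 CPM in Foxp3-positive CD4 barcodes (4.10 ± 0.38, edgeR adjusted p = 2.62e-05). Lgals7 was concentrated, since 1 barcode held 86.5% of its UMIs in library 3 labelled shPgk1. Il13 was at 0 CPM in the Foxp3-positive CD4 barcodes of all 6 libraries. It did not pass the filter on low counts in this comparison with all barcodes, but it was tested and called higher without the mixed barcodes.

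Genes of naive and memory T cells were higher more often than lower. Of 13 tested genes of a naive and memory list, 6 were higher and 1 was lower, with a median log2 difference of 0.65 against -0.01 over all genes tested. Tcf7, which encodes the transcription factor TCF-1, differed by 3.24 ± 0.47 (edgeR adjusted p = 0.000337), and Bach2, a repressor that restrains effector differentiation, by 1.95 ± 0.26 (0.000163). Klf2, a factor of T cell recirculation, differed by 1.28 ± 0.23 (0.000974). The survival gene Bcl2 rose by 2.50 ± 0.29 (1.93e-05) and the immediate early gene Egr1 by 1.91 ± 0.21 (1.24e-05).

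Receptor signalling genes split until the mixed barcodes were left out. Of 20 tested genes of that list, 3 were higher and 3 lower with all barcodes, and 10 higher and 1 lower without the 34. Prkcq, which encodes protein kinase C theta and acts downstream of the T cell receptor, was higher in both (1.23 ± 0.33 SE with all barcodes, edgeR adjusted p = 0.0198).

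Genes shared with the regulatory programme were lower. Of 16 tested members of that list, 12 were lower and 1 was higher, with a median of -1.62. Ikzf2, which encodes Helios, stood at 84.8, 203 and 231 CPM in CD4 T barcodes, against 552, 1270 and 1390 CPM in Foxp3-positive CD4 barcodes (-2.49 ± 0.25, edgeR adjusted p = 5.32e-05). Il2ra, the high-affinity interleukin 2 receptor chain, stood at 64.6, 108 and 136 CPM in CD4 T barcodes, against 441, 583 and 756 CPM in Foxp3-positive CD4 barcodes (-2.38 ± 0.19, 7.09e-07). Neither gene overlapped between the 2 kinds of barcode. Itgae, the integrin chain CD103, fell by 2.46, Klrg1 by 2.93 and Ctla4, an inhibitory receptor, by 1.73 on the log2 scale.

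Costimulatory receptors followed the same direction. Of 9 tested members, 6 were lower and none higher (median -1.09), with Tnfrsf4, the receptor OX40, at -1.60 ± 0.22 (edgeR adjusted p = 0.000239), Tnfrsf9, the receptor 4-1BB, at -1.64 ± 0.20 (8.23e-05) and Icos at -1.09 ± 0.19 (0.000815). Cell division genes were lower as well, with 7 of 12 tested genes of the G1/S list and 3 of 6 of the G2/M list. The immunoglobulin genes Igkc (-4.25 ± 0.39, 4.08e-06) and Ighm (-1.77 ± 0.30, 0.000583) were also lower in CD4 T barcodes. Among the 15 largest higher differences were myeloid and inflammatory genes, and most of their calls were not made without the mixed barcodes. Without those, Lyz2 went to 0.21, Wfdc17 to 0.34, Ccl6 to 0.27, Cxcl2 to 0.75 and Ifitm1 to 1.86, none past the threshold, while Pf4, Pla2g7 and Mmp13 did not pass the filter on low counts and were not tested there. Without the mixed barcodes Pf4 averaged 27.3 CPM in CD4 T barcodes and 28.7 CPM in Foxp3-positive CD4 barcodes, and Pla2g7 averaged 28.8 CPM in CD4 T barcodes and 21.0 CPM in Foxp3-positive CD4 barcodes. Mmp13, a collagenase gene, kept its average but not its level in each library. It averaged 119 CPM in CD4 T barcodes and 25.1 CPM in Foxp3-positive CD4 barcodes without the mixed barcodes. With all barcodes it averaged 115 CPM in CD4 T barcodes and 25.2 CPM in Foxp3-positive CD4 barcodes. Without the mixed barcodes the CD4 T levels were 405, 7.17 and 207 CPM in libraries labelled shPgk1, and 17.7, 18.8 and 58.5 CPM in shNC libraries. With all barcodes they were 309, 60.2 and 160 CPM in libraries labelled shPgk1, and 58.4, 21.2 and 79.5 CPM in shNC libraries.

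Set against 1094 CD8 T barcodes, the CD4 T barcodes carried more type 2, costimulatory and memory genes and less of the cytotoxic and cell division programmes. edgeR called 2338 of 8828 genes (26.5%), 1210 higher (13.7%) and 1128 lower (12.8%); without the mixed barcodes it called 2599 of 8226 (31.6%), with 15.8% in each direction. CD8 barcodes were deeper, with the medians given above, and thinning the barcodes of both kinds to 2000 UMIs left 785 called genes among the 2257 tested. Cd8a, Cd8b1 and Cd4 were used by the rule and are left out.

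The type 2 list stood out in count, with 6 of 7 tested members higher and a median of 2.57 against 0.02 over all genes. Gata3, the master transcription factor of type 2 helper cells, stood at 172, 214 and 280 CPM in CD4 T barcodes (lowest, median and highest library), against 30.3, 32.8 and 39.9 CPM in CD8 barcodes. The levels did not overlap (2.57 ± 0.14 SE, edgeR adjusted p = 6.86e-11). Il13 stood at 24.3, 77.7 and 689 CPM in CD4 T barcodes, against 0, 2.03 and 3.19 CPM in CD8 barcodes (6.16 ± 0.99, 0.0088). Il1rl1, the receptor for interleukin 33, differed by 4.55 ± 0.27 (1.57e-10), and Maf, a factor of type 2 and follicular helper cells, by 3.62 ± 0.39 (0.000663). Over Foxp3-positive CD4 barcodes this list did not rise: 0 of 5 tested members were higher and 2 lower, with a median of -0.52. Maf was lower there (-0.69 ± 0.19, edgeR adjusted p = 0.0223) and Gata3 did not pass (0.42 ± 0.2, 0.188). Without the mixed barcodes 2 of 6 were higher and 0 lower in that comparison, with a median of 0.05. Gata3 was then higher (0.72, 0.0366) and Maf did not pass (-0.6, 0.0812). Il13 was tested there and was higher (9.67 ± 0.52, edgeR adjusted p = 1.88e-08), from a level of 0 CPM in Foxp3-positive CD4 barcodes.

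Helper ligands and receptors separated the kinds as well. Cd40lg, which encodes CD40 ligand, stood at 10, 25.6 and 76.7 CPM in CD4 T barcodes, against 0, 0.246 and 1.24 CPM in CD8 barcodes (5.77 ± 0.5, edgeR adjusted p = 6.75e-08). Tnfsf8 stood at 114, 280 and 622 CPM in CD4 T barcodes, against 2.42, 7.3 and 17.7 CPM in CD8 barcodes (5.11 ± 0.46, 0.000358). No library of one kind reached the other for these 2 genes. Of 11 tested costimulatory genes 8 were higher, including Tnfrsf4 (1.96 ± 0.17, 1e-07), Icos (1.46 ± 0.18, 1.73e-05) and Cd28 (1.13 ± 0.18, 0.000138). Cd5 was higher by 2.17 ± 0.18 (4.22e-08) and Lef1 by 2.27 ± 0.21 (2.76e-07).

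Cytotoxic genes were lower: 9 of 13 tested members of that list fell, with a median of -3.27. Gzma, a granzyme, stood at 3.26, 6.4 and 15.1 CPM in CD4 T barcodes, against 74.9, 154 and 883 CPM in CD8 barcodes (-4.77 ± 0.26, edgeR adjusted p = 1.28e-10). Prf1, perforin, fell by 4.53 and Gzmb by 3.27 on the log2 scale. The Gzmb call was lost at -3.22 when shNC library 2 was dropped (edgeR adjusted p = 0.0511). Of the cell division lists, 16 of 18 G1/S and 17 of 18 G2/M genes were lower, and 16 of 18 oxidative phosphorylation genes and 75 of 80 ribosomal protein genes were lower too. The depth gap between the kinds moves with these lists, and its part in them was not tested.

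**Figure D3:**
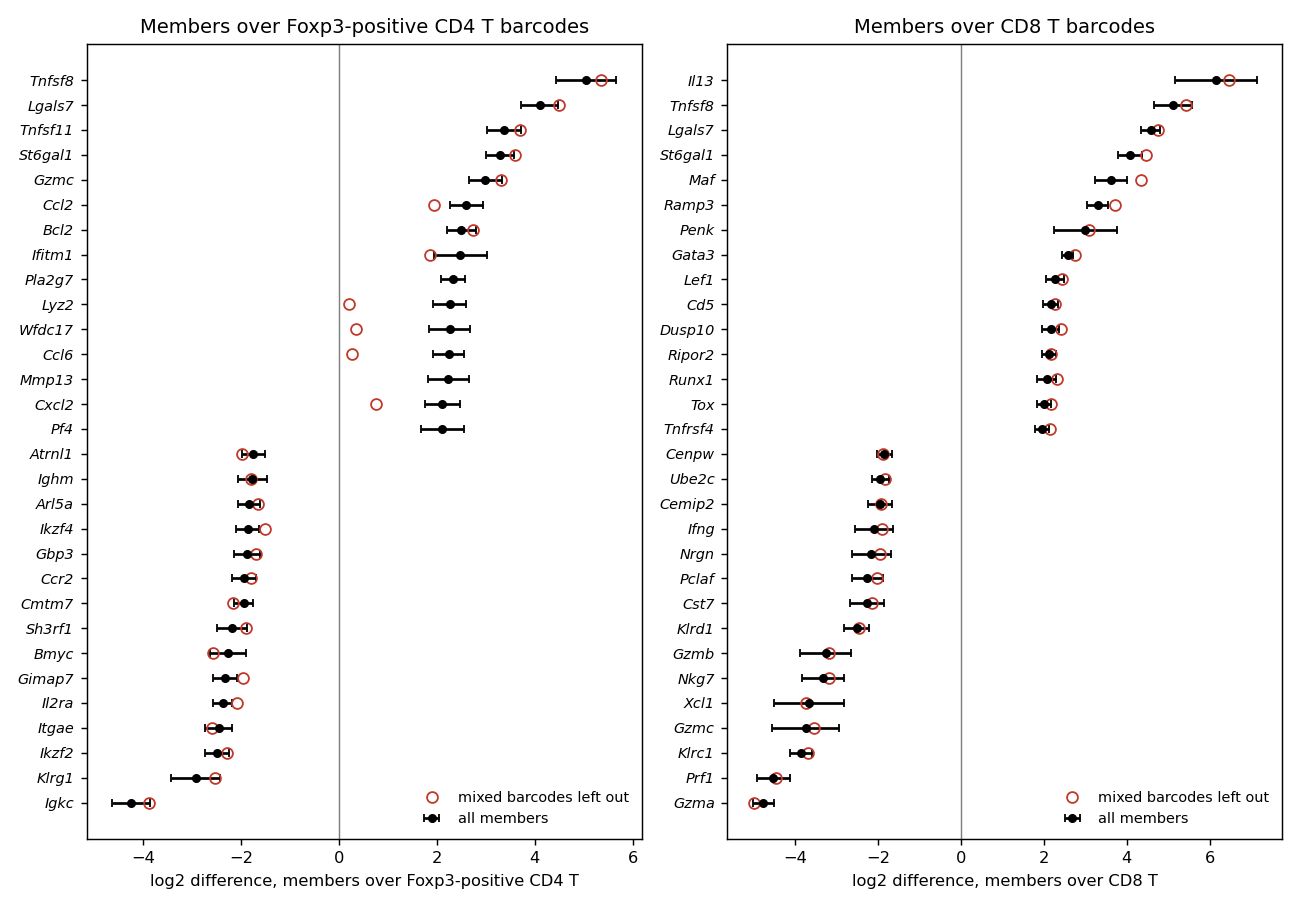
Log2 differences with their standard errors, CD4 T barcodes over Foxp3-positive CD4 barcodes and over CD8 barcodes, for the 30 named genes of each comparison (filled points), with open circles for the values without the mixed barcodes. Tnfsf8 is far to the right in both comparisons (5.05 and 5.11), Ikzf2 lies far to the left over Foxp3-positive CD4 barcodes (-2.49), and Gzma lies left against CD8 barcodes (-4.77).

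Within the 232 CD4 T barcodes free of the mixed ones, helper gene sets were counted per barcode, and they shared barcodes in part. A UMI of Il4, Il5 or Il13 was found in 36 barcodes (15.5%), with 14.7%, 22.2% and 12.8% in libraries labelled shPgk1 and 12.5%, 17.9% and 17.2% in shNC libraries. The groups overlapped (exact permutation p = 0.9, n = 3 each). Il4, interleukin 4, had a UMI in 18 of these barcodes, Il13 in 21 and Il5, interleukin 5, in 5, with 5 barcodes carrying both Il4 and Il13. Gata3 accompanied 17 of the 18 Il4 barcodes, 17 of the 21 Il13 barcodes and all 5 Il5 barcodes, against 139 of 232 overall. Gata3 is not confined to T cells here: after thinning to 2000 UMIs it was in 31.1% of CD4 T barcodes, 33.8% of Foxp3-positive CD4 barcodes, 6.63% of CD8 barcodes and 13.0% of epithelial tumour barcodes. Tnfsf8 was in 14 of the 21 Il13 barcodes and 76 of 232 overall. Deeper barcodes carry more genes: the median was 7052 UMIs in type 2 cytokine barcodes and 5073.5 in the others.

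The 3 cytokine genes lie near each other on chromosome 11, and their promoters are printed with that of Tnfsf8 because the type 2 cytokine set and Tnfsf8 are described above. The windows run from 250 bases before to 50 after the RefSeq gene start in GRCm38.p6, 5′ to 3′ on the gene's strand. Capitals mark a core that GATA factors bind, on either strand, in any of 4 spellings: the first is AGATAA, the next reads TGATAA, another is spelled AGATAG and the last of them is given by TGATAG. No matches overlapped. Il4 has more than one annotated start, and the one at chr11:53618616-53618915 (minus strand) is shown. Il13 lies at chr11:53634653-53634952 (minus), Il5 at chr11:53720544-53720843 (plus) and Tnfsf8 at chr4:63861235-63861534 (minus).
Il4: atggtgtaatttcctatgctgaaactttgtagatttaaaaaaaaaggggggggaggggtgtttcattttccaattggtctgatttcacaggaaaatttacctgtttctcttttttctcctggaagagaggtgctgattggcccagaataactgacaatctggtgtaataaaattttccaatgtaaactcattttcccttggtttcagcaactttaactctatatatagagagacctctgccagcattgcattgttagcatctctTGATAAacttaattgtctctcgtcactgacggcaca
Il13: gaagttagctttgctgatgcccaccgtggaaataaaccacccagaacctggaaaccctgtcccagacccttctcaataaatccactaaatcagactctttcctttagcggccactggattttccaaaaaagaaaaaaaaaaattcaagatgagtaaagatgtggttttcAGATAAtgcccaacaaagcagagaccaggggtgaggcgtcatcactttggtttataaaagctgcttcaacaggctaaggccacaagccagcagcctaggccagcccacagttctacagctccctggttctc
Il5: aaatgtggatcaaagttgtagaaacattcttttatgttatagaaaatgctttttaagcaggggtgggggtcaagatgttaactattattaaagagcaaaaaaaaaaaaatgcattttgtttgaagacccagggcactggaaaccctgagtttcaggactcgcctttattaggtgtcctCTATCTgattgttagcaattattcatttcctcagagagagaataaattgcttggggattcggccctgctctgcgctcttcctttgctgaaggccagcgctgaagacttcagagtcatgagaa
Tnfsf8: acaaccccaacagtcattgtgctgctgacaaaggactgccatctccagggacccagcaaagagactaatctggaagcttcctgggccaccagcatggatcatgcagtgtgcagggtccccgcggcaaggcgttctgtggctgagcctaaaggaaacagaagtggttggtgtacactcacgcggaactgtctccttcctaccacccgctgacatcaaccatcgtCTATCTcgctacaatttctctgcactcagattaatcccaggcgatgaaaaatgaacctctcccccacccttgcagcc
Each window held 1 match. Of 32851 such promoter windows in the mouse table, 9778 (29.8%) held at least 1 match, so a match describes the letters only.

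After thinning to 2000 UMIs, the variance over the mean across 221 unmixed barcodes was highest for Penk, the enkephalin precursor gene, at 48.4, followed by Il13 at 43.0 and Ccl1 at 39.7. Penk had a UMI in 14 of these 221 barcodes, Il13 in 14 and Ccl1 in 19, so a few barcodes carried most of their UMIs. Other gene sets were counted in the same way. Tnfsf8 or Tnfsf11 had a UMI in 93 of 232 barcodes (40.1%), and both together in 42. Ifng or Tbx21, the type 1 cytokine and its factor, were in 60 (25.9%). Cxcr5, the follicular homing receptor, was in 8 (3.45%), and the division genes Mki67 or Top2a in 59 (25.4%). Ccl1 or Csf2, a chemokine and the growth factor GM-CSF, were in 38 (16.4%). Tnfsf8 or Tnfsf11 was found in 33 of these 38 barcodes (86.8%) and in 21 of the 36 type 2 cytokine barcodes (58.3%), against 40.1% overall. Median depth was 9002.5 UMIs in Ccl1 or Csf2 barcodes and 4897 in the others. It was 7028 UMIs in Tnfsf8 or Tnfsf11 barcodes and 4413 in the others. The part of depth in these overlaps was not tested. Ifng or Tbx21 was in 10 of the 36 type 2 cytokine barcodes (27.8%), against 25.9% overall. The Ccl1 or Csf2 barcodes were 32.4%, 27.8% and 0% of barcodes in libraries labelled shPgk1, where library 3 had none of 39 barcodes, against 12.5%, 17.9% and 17.2% in shNC libraries.

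Lef1 or Tcf7, factors of naive and memory cells, had a UMI in 133 barcodes (57.3%). The shares were 58.8%, 50% and 79.5% in libraries labelled shPgk1, against 60.7%, 57.1% and 24.1% in shNC libraries (exact permutation p = 0.5, n = 3 each). Library 3 labelled shPgk1 was the highest and shNC library 3 the lowest, so the groups overlapped. Ikzf2 or Il2ra ran in the other direction for library 3 labelled shPgk1, with shares of 61.8%, 61.1% and 12.8% in libraries labelled shPgk1, against 60.7%, 42.9% and 65.5% in shNC libraries (exact permutation p = 0.7, n = 3 each).

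**Figure D4:**
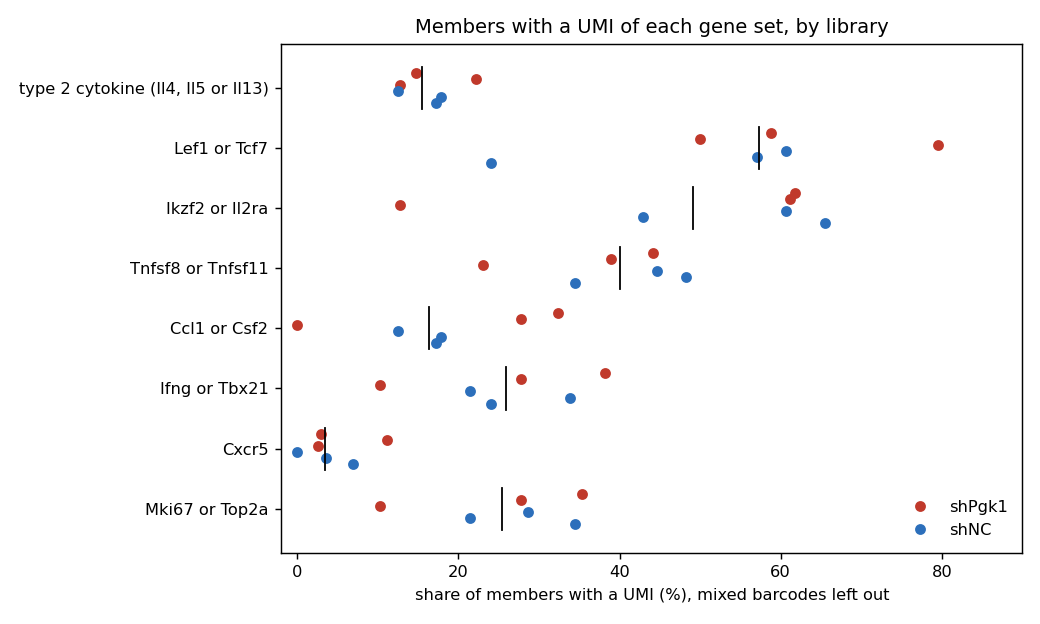
Share of CD4 T barcodes (percent, mixed barcodes left out) with a UMI of each gene set, 1 point per library, libraries labelled shPgk1 in red and shNC libraries in blue, with a black line at the pooled share. Lef1 or Tcf7 spans 24.1% to 79.5%, and library 3 labelled shPgk1 is highest there and lowest for Ikzf2 or Il2ra.

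Library 3 labelled shPgk1 stood apart in several of these measures. It had the shallowest CD4 T barcodes, with a median of 3336.5 UMIs, and the highest Satb1 (1010 CPM, against 261 to 473 CPM in the other 5 libraries), Lef1 (450 CPM, against 27.3 to 171 CPM) and Bach2 (665 CPM, against 169 to 321 CPM). Ccl1 and Csf2 were at 0 UMIs there. Its depth moves with these levels, and its part in them was not tested.

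Few genes differed between the groups. Of 4919 genes tested with edgeR between the CD4 T sums of libraries labelled shPgk1 and shNC libraries, 2 passed (0.0407%), both lower, and 218 had an unadjusted p below 0.05. One was Gm42418, a ribosomal-RNA-like transcript (-0.25 ± 0.03, edgeR adjusted p = 0.005), which was not called by DESeq2 or without the mixed barcodes. The other was Gzmc, a granzyme of activated lymphocytes, at 45.5, 40.2 and 32.6 CPM in libraries labelled shPgk1, against 208, 145 and 316 CPM in shNC libraries. The groups did not overlap (-2.59 ± 0.36, edgeR adjusted p = 0.0101; -2.55 without the mixed barcodes, 0.0211, the single call among 4085 genes or 0.0245%). Groups without overlap were found for 10.7% of the genes tested, 7.14% higher and 3.6% lower. DESeq2 called 5 genes (0.102%), 1 higher (0.0203%) and 4 lower (0.0814%).

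The Gzmc value rests on few barcodes. Only 33 CD4 T barcodes held a Gzmc UMI. They were 8 of 42, 2 of 21 and 5 of 44 in libraries labelled shPgk1. In shNC libraries they were 7 of 65, 7 of 59 and 4 of 35, so these shares overlapped between the groups. After thinning to 2000 UMIs the shares were 0%, 0% and 5.13% in libraries labelled shPgk1. The shNC shares were then 3.23%, 8.62% and 5.71%, again with overlap. A lower share of barcodes with Gzmc was therefore not shown. In shNC libraries 1, 2 and 3 a single barcode held 81.9%, 50.9% and 62.2% of the UMIs. The call was lost at a similar difference when a library was dropped: -2.25 without shNC library 3 (edgeR adjusted p = 0.0835) and -2.58 with library 2 labelled shPgk1 dropped (0.121). With library 3 of that label dropped it was -2.44 (0.0795). It was also lost, at -2.59, when barcodes with 20 or more macrophage marker UMIs per 10000 were left out (0.953). That setting kept 109 barcodes, with 16, 14 and 33 in libraries labelled shPgk1 and 20, 23 and 3 in shNC libraries. The lost call therefore cannot be told apart from the small number of barcodes. Other measures moved with the groups. The median mitochondrial share of the CD4 T barcodes was 0.859%, 0.698% and 0.907% in libraries labelled shPgk1, against 0.556%, 0.691% and 0.554% in shNC libraries, without overlap (exact permutation p = 0.1, the smallest possible). Neutrophil markers without the mixed barcodes summed to 23.8 to 100 CPM in libraries labelled shPgk1 and 250 to 273 CPM in shNC libraries, also without overlap. Their part in the Gzmc result was not tested. Granzymes are a family of close copies, and the labels do not say how reads were divided between them. In the same barcodes 96.2% of the UMIs of Gzmf, another granzyme, sat in 1 barcode of shNC library 3.

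Genes ranked next did not pass, and some of them are given here. Aff3, a nuclear protein gene of lymphocytes, stood at 47.9, 85.3 and 137 CPM in libraries labelled shPgk1, against 18.3, 10.6 and 14.9 CPM in shNC libraries, without overlap (2.41 ± 0.46, edgeR adjusted p = 0.178; DESeq2 adjusted p = 0.0102). Hspa1b, an inducible heat shock protein 70 gene, stood at 91.0, 115 and 71.7 CPM in libraries labelled shPgk1, against 159, 540 and 607 CPM in shNC libraries, without overlap (-2.33 ± 0.47, adjusted p = 0.367; DESeq2 adjusted p = 0.000866). Hspa1b has a near-identical copy, Hspa1a, so reads may be split between them. Slpi (-2.53 ± 0.5, edgeR adjusted p = 0.367, DESeq2 adjusted p = 0.00108) and Eps8 (2.18 ± 0.48, edgeR adjusted p = 0.367) ranked ahead of Hspa1b by edgeR p. Without the mixed barcodes Slpi averaged 36.6 CPM over the libraries, against 135 CPM with all barcodes. Eps8 averaged 16.2 CPM without them, against 35.2 CPM with all. Neither gene passed the filter on low counts without the mixed barcodes, so neither was tested there. Lgals7 stood at 467, 658 and 290 CPM in libraries labelled shPgk1, against 202, 238 and 184 CPM in shNC libraries, also without overlap (1.07 ± 0.29, adjusted p = 0.935).

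The lists held few calls. The cytotoxic list held the only call, Gzmc, and no other list had a member past the threshold. Medians were -0.49 for 11 costimulatory genes, -0.47 for 13 interferon-stimulated genes, -0.41 for 13 heat shock genes and 0.34 for 12 naive and memory genes, against -0.02 over all genes tested. None of 14 NF-kB genes passed (median -0.20), a pathway that the series title names, with Nfkbia, the feedback inhibitor, at -0.05 ± 0.13 (edgeR adjusted p = 0.999). Without the mixed barcodes the NF-kB median turned to 0.05, and again none of 14 passed. None of 15 glycolysis genes passed (median -0.23, and -0.42 over 14 genes without the mixed barcodes). Il4 stood at 7.19, 5.02 and 32.6 CPM in libraries labelled shPgk1, against 32.9, 66.1 and 82.0 CPM in shNC libraries, a gap that did not pass (-2.02 ± 0.58, adjusted p = 0.935).

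**Figure D5:**
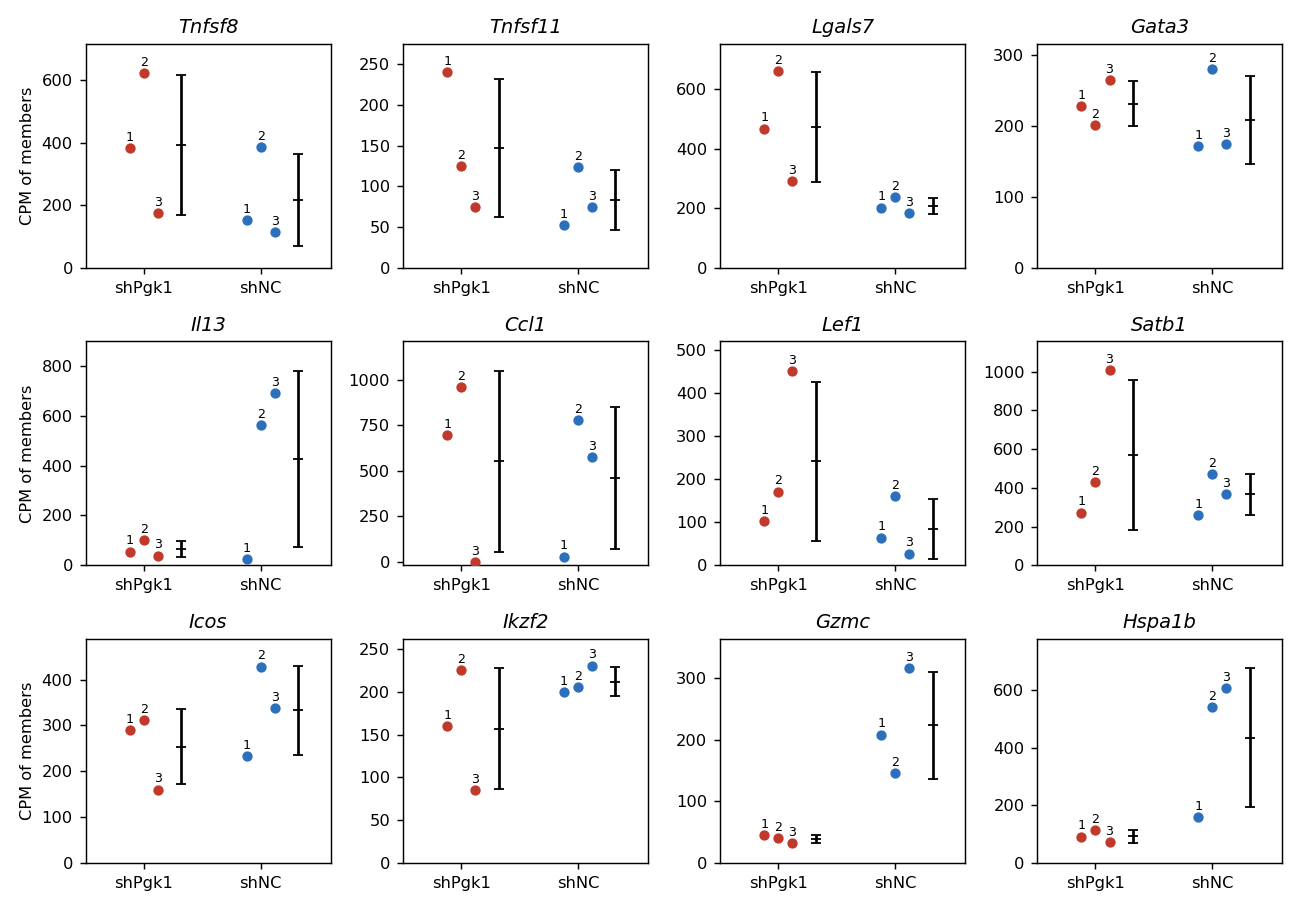
CPM of 12 genes in the CD4 T barcodes, 1 numbered point per library with the mean and SD as a bar, libraries labelled shPgk1 left of shNC libraries. Gzmc is lower in all 3 libraries labelled shPgk1 (32.6 to 45.5 CPM, against 145 to 316 CPM), while Tnfsf8, Gata3 and Icos overlap between the groups.

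Shares of barcodes with a UMI were compared after thinning each barcode to 2000 UMIs. Of 249 list genes with a UMI in enough barcodes, 23 (9.24%) had shares that did not overlap between the groups. With 3 libraries against 3 the smallest exact permutation p is 0.1, so no gene could pass and the shares are given as values. Hspa1b was in 7.5%, 15% and 7.69% of barcodes in libraries labelled shPgk1, against 16.1%, 37.9% and 51.4% in shNC libraries. Ltb, which encodes lymphotoxin beta, was in 45%, 50% and 38.5% of barcodes in libraries labelled shPgk1, against 21.0%, 31.0% and 31.4% in shNC libraries. The groups did not overlap for these 2 genes. Background differs by gene: after the same thinning Tnfsf8 was in 20.5% of CD4 T barcodes, 0.966% of Foxp3-positive CD4 barcodes, 1.12% of CD8 barcodes and 0.252% of epithelial tumour barcodes.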

How the data were processed

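The authors deposited raw UMI counts, with a matrix of genes by barcodes for each library. Per the submitters' processing notes, Seurat 4 and PISA 0.12 were run; the aligner, annotation and mouse build are not given here. Of 28649 gene names, 27957 matched GENCODE M21. Columns of other samples numbered 0. The CD4 T barcodes were chosen by the rule given above; members and gene lists were chosen with earlier results of these data known. Counts were summed per library (cells are not replicates) and compared by quasi-likelihood tests in edgeR 4.0.16 under R 4.3.3 (TMM, filterByExpr, robust); DESeq2 1.42.0 was an alternative. Standard errors are the log2 difference divided by the square root of F. Genes were named by a fixed rule: list members with the smallest p, the largest called differences with at least 20 CPM (50 CPM between kinds of T cell) and the highest ratios and Fano factors. Scrublet in scanpy 1.11.5 was used with a limit of 0.25 only as an alternative, since its own threshold marked 1 barcode in most libraries. Barcodes with 60 or more macrophage or 50 or more neutrophil marker UMIs per 10000 were left out in an alternative chosen after seeing the data. Fits were tested on simulated data. Same-numbered libraries deviated together with correlations of 0.0834, 0.115 and -0.0161, against -0.127 to 0.0482 for differently numbered ones. From sums of so few barcodes these values cannot decide whether the numbers pair the libraries, and the labels do not say. The main tests did not treat them as pairs. The series describes 3 biological replicates per group, but nothing says they came from separate animals, so the spread behind the p-values may be technical. Intervals (95%) and floors cover counting error only. Counts over lists also cover a few genes that are not named.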

Additional observations from a re-analysis of the deposited data

Results flagged for a closer look

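The difference of the group effect between CD4 T and CD8 T barcodes passed for 3 of 10002 genes (0.03%, edgeR adjusted p below 0.05), and for 0 of 6202 between CD4 T and Foxp3-positive CD4 barcodes (185 with an unadjusted p below 0.05). Tnfsf8, the ligand of CD30, differed by 2.11 ± 0.34 on the log2 scale (adjusted p = 0.0162; 2.05 and 0.0402 without the mixed barcodes), with a log2 difference between the groups of 0.76 in CD4 T barcodes and -1.18 in CD8 barcodes; the call was lost at 2.20 without library 2 labelled shPgk1 (adjusted p = 0.0514). In CD8 barcodes Tnfsf8 rests on 18, 21 and 5 UMIs in libraries labelled shPgk1 and 32, 36 and 42 UMIs in shNC libraries. Its CPM overlapped between the groups in both kinds of barcode. In library 2 labelled shPgk1 a single CD4 T barcode held 44.4% of its UMIs. Ms4a7, a macrophage gene, differed by 2.48 ± 0.42 (edgeR adjusted p = 0.0213) and went to -0.79 without the mixed barcodes. Prtn3, a neutrophil protease gene, differed by 12.03 ± 1.6 (adjusted p = 0.00359). It rests on 7, 0 and 4 UMIs in CD4 T barcodes of libraries labelled shPgk1 and none in shNC libraries, and on 644 UMIs in CD8 barcodes of shNC library 1, without which it was 6.59 with an adjusted p of 0.965.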

How the results depend on the processing

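Leaving out 1 library at a time moved the difference in the share of kept barcodes between -0.396 and -0.158 points, of T barcodes between -2.91 and 1.02, of CD4 barcodes between -0.389 and 3.91, and in median depth between -1341 and 684.6 UMIs. The CD4 share turned to -5.34 with thinning to 2000 UMIs and -1.09 with 3 or more CD3 UMIs. The number of list genes whose thinned shares did not overlap was 38 at 4000 UMIs and 37 to 61 with a library left out. For the groups, genes called numbered 5 with DESeq2, 29 with no filter on low counts, 1 with 3 or more CD3 UMIs, 0 without barcodes carrying Il2ra or Ikzf2, 1 with 20 or more macrophage UMIs per 10000 left out, 0 after thinning, 1 without the mixed barcodes and 0 to 5 with a library left out. Against Foxp3-positive CD4 barcodes they numbered 148 after thinning, 420 without the mixed barcodes and 419 to 688 with a library left out, the lowest without library 1 labelled shPgk1. Against CD8 barcodes they numbered 785 after thinning and 1727 to 2122 with a library left out. The difference of the group effect between kinds gave 9 genes with no filter on low counts against Foxp3-positive CD4 barcodes and 0 to 4 with a library left out, and against CD8 barcodes 40 with no filter, 1 without the mixed barcodes and 2 to 19 with a library left out. Ms4a7 went to -0.79 without the mixed barcodes. With a replicate block, the shares differed by -0.268, -0.928 and 1.81 points as before, and 2 genes were called between the groups, Gzmc and Rarres2. The cause of each change was not tested. With 21 to 65 barcodes per library, 1 barcode can set the level of a rarely detected gene.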
